A study of Mus musculus with 14 samples.

Results

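Sir2OE2 derives from MIN6, an insulin-secreting cell line of mouse pancreatic beta cells, and carries an added copy of the mouse Sirt1 gene. Its RNA was set against pooled RNA of the control lines Neo1 and Neo2 on 4 arrays out of 14 in the series, and all 23232 probes of the array entered. Per the labels, Sir2OE2 and its sister line Sir2OE1 were made by infection with the retrovirus pBabe-Sirt1, and Neo1 and Neo2 by infection with the empty virus pBabe-neo. Both viruses carry neomycin resistance, so the controls share the resistance gene and the infection. The labels state selection in 280 micrograms of G418 per ml, MIN6 cells at passage 24, and culture at 5 mM glucose over the last 4 days. Sir2OE1 was measured on 3 arrays against the same Neo pool. Each overexpressing line is 1 infected and selected line, with virus insertion sites not given in the sources used here. Nothing in the labels says that the slides of a line came from separate cultures. The p-values therefore reflect array-to-array spread, possibly technical, and leave out the spread of the Neo lines.

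Sirt1 is an enzyme that removes acetyl groups from proteins and uses up NAD in doing so, which ties its activity to the energy state of the cell. Its substrates include histones and the transcription regulators p53, the FoxO factors and PGC-1 alpha. In beta cells it is known for its part in insulin release and for repressing the gene of an uncoupling protein of the mitochondrial membrane. Beta cells are epithelial and endocrine cells that also use many genes of neurons, since both release packaged signals on a rise in calcium.

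Every array gave 1 ratio per probe, between its 2 channels. The line was in channel 2 on slides 1 and 2 and in channel 1 on slides 3 and 4. For each probe the deposited log2 ratios were centred, and the channel ratio of each array could be recovered from them as a whole-number percent, with 100% for equal channels and with any factor common to all arrays of the probe unknown. The sign of slides 3 and 4 was then turned, so that a "plus side" and a "minus side" of the log2 ratio follow the line and not the channel. Which channel stands on top of the ratio is nowhere given in the sources used here. Whether the plus side means more or less RNA in Sir2OE2 than in the Neo pool is therefore unknown, and only sizes and sides are given. A probe is "called" where the limma adjusted p is below 0.05. Each value after ± is the standard error (SE) of the limma fit. It rests on a spread estimated per probe over all lines of the series, and not on the arrays of the line alone. The n beside an SE counts the arrays of the line.

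The turn has its own limit. With the centring undone, slides 1 and 2 correlated at r = 0.481 across all probes and slides 3 and 4 at 0.386, and pairs of opposite channel at 0.067 to 0.13. The called probes showed the exchange directly. Of 653 called probes, 625 (95.7%) had a recovered percent on one side of 100% on slides 1 and 2 and on the other side on slides 3 and 4, as did 17.5% of all probes tested, and 8 stayed on one side on all 4 arrays. Since the same ratios made the calls, this describes them and is no separate test. With no sign turned, limma called 0 probes in Sir2OE2 and 54 had an unadjusted p under 0.05, in values whose centring would then have removed the mean of the lines.

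Sir2OE2 differed from the Neo pool at 653 of 23230 tested probes (2.81%), 332 plus (1.43%) and 321 minus (1.38%). All 653 had 4 of 4 arrays on the same side. The calls were made from these same arrays, so this is no separate support. The median absolute log2 ratio of the called probes was 0.88 and the smallest was 0.39. Above 1, a change of more than 2-fold, were 265 probes, 157 plus and 108 minus. Above 2 the balance was 31 to 8, and above 3 it was 7 to 1. The 568 called probes with a single gene symbol stood for 559 genes, and the other 85 had none. The median log2 ratio of all tested probes was -0.0036. Calls were lost with any array left out, to 317 without slide 1, 339 without slide 2, 323 without slide 3 and 389 without slide 4.

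The Sirt1 probe itself was not called in this line. It read 78% and 70% on slides 1 and 2 and 109% and 126% on slides 3 and 4, which puts all 4 arrays on the minus side. The limma fit gave a log2 ratio of -0.33 ± 0.10 (fit SE, n = 4 arrays of this line) and an adjusted p of 0.131. The probe's place relative to the retroviral gene is not known here, and it does not check the label. Of the other sirtuins, Sirt3 was at -0.31, Sirt6 at 0.39, Sirt5 at 0.19 and Sirt2 at -0.07. Among 17 measured genes of the sirtuins and of NAD supply, from Nampt, which makes the NAD precursor, to the NAD consumer Parp1, 0 were called by limma.

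The genes furthest on the plus side were Sod3, 9230117E06Rik, Uchl1 and Ifi44l, each past 3 on the log2 scale. Sod3 encodes the superoxide dismutase secreted outside the cell. Its recovered ratio was 1842% and 1547% with the line in channel 2 and 5% and 6% with the line in channel 1. The pairs lie at opposite ends of the scale and repeat closely, and the fit gave 4.13 ± 0.12 (fit SE, n = 4), a 17.6-fold difference. The uncharacterised transcript 9230117E06Rik read 1113% and 1450% against 7% and 10%, a log2 ratio of 3.62 ± 0.17 and 12.3-fold. Uchl1, a ubiquitin hydrolase abundant in neurons and endocrine cells, read 873% and 1119% against 13% and 11%, or 3.18 ± 0.11. For Ifi44l, an interferon-induced gene, the percents were 894 and 1132 against 14 and 12, at 3.14 ± 0.26. In all 4 genes both arrays of one channel order stood far above both arrays of the other, which picking the furthest genes favours. The interferon response as a list did not follow Ifi44l, which is not on it: 1 of 27 measured genes was called, B2m on the minus side at -0.62.

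**Figure D1:**
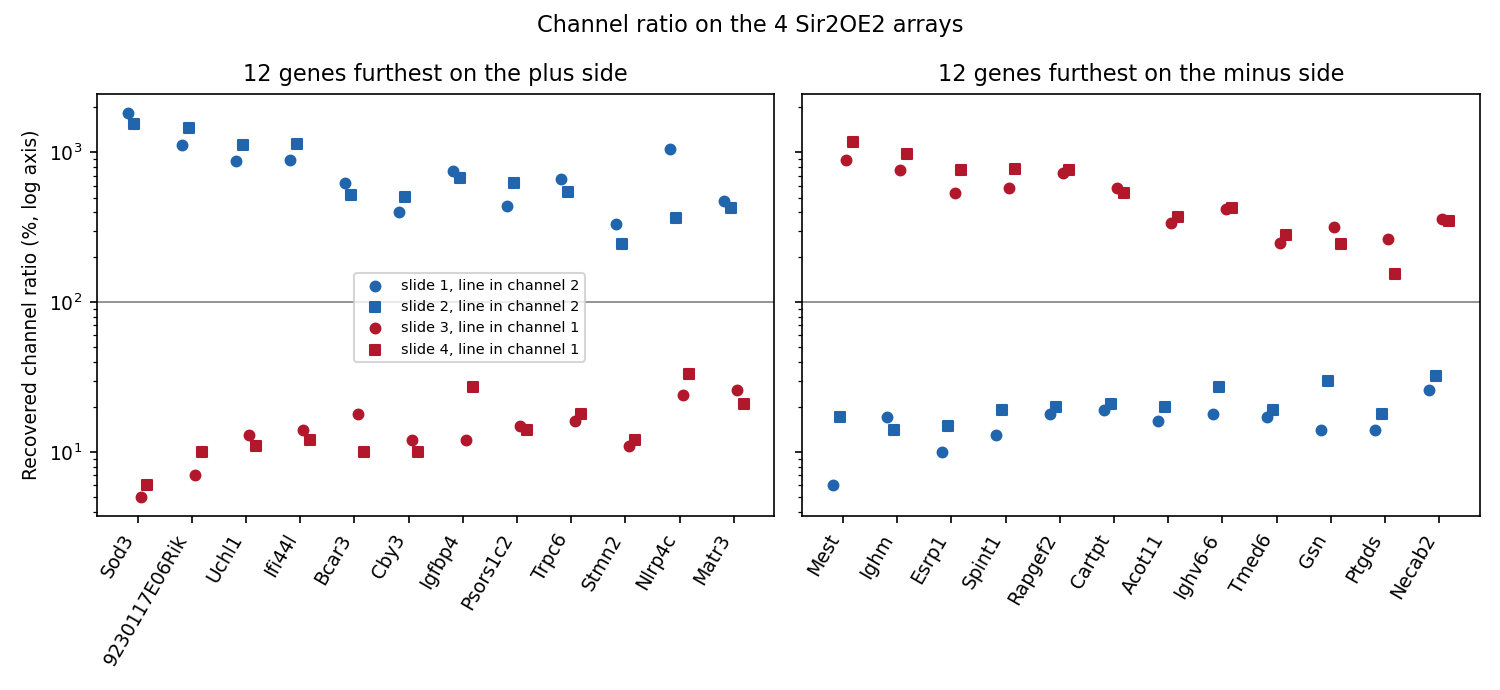
Recovered channel ratio in percent (log axis) of the 12 genes furthest on each side, 1 point per array, with blue for the line in channel 2 (slides 1 and 2) and red for the line in channel 1 (slides 3 and 4). Every gene crosses the 100% line when the channels are exchanged, and Sod3 spans the range from 5% to 1842%. The genes were picked with all arrays on one side, so the crossing is no separate support.

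Of the other plus-side genes among the 12 furthest, Igfbp4, which binds insulin-like growth factors, read 756% and 677% against 12% and 27%, at 2.66 ± 0.21. Slides 3 and 4 differed more for it than for Sod3, but both stayed far under 100%. Trpc6, a cation channel opened by diacylglycerol, read 663% and 547% against 16% and 18%, at 2.57 ± 0.21. Bcar3, an adaptor protein of integrin and growth factor signalling, was at 2.71 ± 0.32, Cby3 at 2.68 ± 0.30, Psors1c2 at 2.58 ± 0.24 and Matr3, an RNA-binding protein of the nuclear matrix, at 2.14 ± 0.26. Nlrp4c, of the NLR family, had the least even arrays, with 1051% and 367% against 24% and 33% and a log2 ratio of 2.23 ± 0.42, and it was not called without slide 1, 2 or 3. The other 11 kept their call with any 1 slide of this line left out.

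Mest was furthest on the minus side. It is an imprinted gene, used from the paternal copy, and encodes a protein of the hydrolase fold. Its ratio was 6% and 17% on slides 1 and 2 and 895% and 1174% on slides 3 and 4, so the arrays again split by channel order, with slide 1 lower than slide 2. The fit gave -3.33 ± 0.31 (fit SE, n = 4), a 10.1-fold difference. Esrp1, an RNA-binding protein that sets epithelial splicing, read 10% and 15% against 537% and 764%, at -2.85 ± 0.37. Spint1, a membrane-bound inhibitor of epithelial serine proteases, read 13% and 19% against 581% and 778%, at -2.71 ± 0.22. Rapgef2, an activator of the small GTPase Rap, was at -2.64 ± 0.23.

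Peptide, lipid and trafficking genes followed on the minus side. Cartpt, the precursor of the CART peptide of neurons and islet cells, read 19% and 21% against 576% and 537%, at -2.40 ± 0.15. Both channel orders repeated closely. Tmed6, of the p24 family that works between the endoplasmic reticulum and the Golgi, was at -1.94 ± 0.16. The synthase of prostaglandin D2, Ptgds, was at -1.84 ± 0.27, and the calcium-binding protein Necab2 at -1.81 ± 0.12. Gsn, which cuts actin filaments, was at -1.89 ± 0.29 and lost its call without slide 3. For 3 names the probes of a gene disagreed. The thioesterase Acot11 was at -2.15 by one probe and -0.28, not called, by the other. Single probes named Ighm and Ighv6-6, immunoglobulin heavy chain genes, were at -2.90 and -2.13, while the other 8 and 33 probes of those names were not called.

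Epithelial genes made up the list with the largest share of called members. Of 39 measured genes of epithelial adhesion, junctions, keratins and splicing, 11 were called on the minus side and 0 on the plus side (28.2%), where 3.53% of the first probes of all 15099 named genes were called, 1.77% plus and 1.76% minus. The list's median log2 ratio was -0.36, against -0.0031 over all named genes, with 29 members below 0 and 10 above. Besides Esrp1 and Spint1 these were the tight junction proteins Cldn7 and Cldn3, the transcription repressor Ovol2, the second splicing regulator Esrp2, the adhesion molecule Epcam, the sorting adaptor Ap1m2, E-cadherin (Cdh1), the protease Tmprss2 and the keratin Krt19. The epithelial list was compiled with earlier results of these data known, so its count is not independent evidence. In bulk RNA, a change in the share of cells of a type and a change in RNA per cell cannot be told apart.

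By array, Cldn7 read 35% and 28% with the line in channel 2 and 428% and 260% with it in channel 1, at -1.71 ± 0.22. Ovol2 read 29% and 31% against 229% and 170%, at -1.36 ± 0.13. For Epcam the percents were 45 and 45 against 226 and 217, at -1.15 ± 0.14. The 2 arrays of each channel order lay close for Epcam and apart for Cldn7. For none of the 11 called genes did the channel orders overlap, which their selection as called favours. Cdh1, the main adhesion protein of epithelial cells, read 69% and 73% against 284% and 231%, at -0.93 ± 0.12. Esrp2 was at -1.25 ± 0.20, Ap1m2 at -1.06 ± 0.16, Tmprss2 at -0.85 ± 0.17, Krt19 at -0.69 ± 0.09 and Cldn3 at -0.45 ± 0.09. Tmprss2 was not called without slide 2, 3 or 4, and Cldn3 without any 1 slide. Desmoplakin (Dsp), at -1.85, and the tight junction protein Ocln, at -0.94, were not called. The regulator Grhl2 was at -0.85 and not called by its first probe but called at 1.06 by its other, so its side depends on the probe. Genes of mesenchymal cells and matrix did not show a matching shift on the other side: 1 of 36, the crosslinking enzyme Loxl2 at 0.87, was called, the list's median was 0.09, and Vim, Cdh2 and Zeb1 were at 0.19, 0.23 and 0.10.

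Promoter sequence was read for Epcam and Cldn7, called members that each hold more than 1 copy of the E-box CACCTG, the short sequence bound by repressors of epithelial genes such as Snail and Zeb proteins. RefSeq windows of build GRCm38.p6 are shown 5′ to 3′ on the plus strand, as the 250 bases before the annotated start of Epcam (chr17:87635729-87635978) and Cldn7 (chr11:69965171-69965420). Capitals mark each CACCTG or its reverse complement.
Epcam: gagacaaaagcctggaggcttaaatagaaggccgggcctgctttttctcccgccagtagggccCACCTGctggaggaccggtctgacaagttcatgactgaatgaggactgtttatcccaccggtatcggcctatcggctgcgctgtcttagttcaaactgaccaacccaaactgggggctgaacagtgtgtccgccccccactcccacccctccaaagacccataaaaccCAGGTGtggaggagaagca
Cldn7: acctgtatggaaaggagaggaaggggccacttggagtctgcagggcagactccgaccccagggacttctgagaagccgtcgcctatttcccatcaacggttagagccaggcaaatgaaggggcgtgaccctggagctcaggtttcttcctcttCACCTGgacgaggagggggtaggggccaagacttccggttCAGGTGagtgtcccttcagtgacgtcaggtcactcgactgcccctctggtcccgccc
Each window held 2 matches, which overlap no other match. Counting both strands, 17.2% of 32851 promoter windows of this length held CACCTG and 2.06% held 2 or more. Of the 11 minus-side epithelial genes, 7 had a window, and 3 of these, Epcam, Cldn7 and Ap1m2, held the motif. Esrp1, Esrp2, Cdh1 and Krt19 were not among the windows. A match describes the letters only, and no binding was measured.

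The 5 alpha-1-antitrypsin genes moved together on the plus side. They encode secreted inhibitors of serine proteases, made chiefly by the liver. Serpina1e read 385% and 395% on slides 1 and 2 and 18% and 28% on slides 3 and 4. Its log2 ratio was 2.06 ± 0.16 (fit SE, n = 4), a 4.17-fold difference. Serpina1b read 451% and 406% against 23% and 33%, at 1.98 ± 0.23. All 4 arrays of both genes stood on the plus side, as for every called plus-side probe, and the channel orders did not overlap. Serpina1a was at 1.90 ± 0.20, Serpina1d at 1.84 ± 0.19 and Serpina1c at 1.82 ± 0.16. These paralogs are nearly identical and lie side by side, so a probe of one may bind RNA of another and the 5 values are not separate evidence. On the list that holds them with other liver plasma proteins, 6 of 27 were called (22.2%), the sixth being the retinol carrier Rbp4 at 1.42 ± 0.27, which lost its call without any 1 slide. The list's other 21 members lay between -0.41 and 0.41 and were not called, among them the hepatocyte markers Alb at 0.02 and Apoa1 at 0.11. Ttr, the lowest of them at -0.41, has a probe in a set that repeats one ratio on most overexpression arrays, so it is not read as a measurement. This list too was compiled with earlier results known.

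The promoters of the 5 genes are printed because they share a run of 55 bases, shown in capitals, which begins 55 to 117 bases before the annotated start. All are from the minus strand of chromosome 12 in RefSeq GRCm38.p6: Serpina1a at chr12:103863620-103863709, Serpina1b at chr12:103738190-103738284, Serpina1c at chr12:103904951-103905046, Serpina1d at chr12:103773634-103773718 and Serpina1e at chr12:103956930-103957044.
Serpina1a: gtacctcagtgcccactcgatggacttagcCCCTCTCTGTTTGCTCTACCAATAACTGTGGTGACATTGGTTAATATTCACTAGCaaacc
Serpina1b: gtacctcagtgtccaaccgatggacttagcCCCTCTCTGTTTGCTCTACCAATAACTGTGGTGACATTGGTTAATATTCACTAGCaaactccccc
Serpina1c: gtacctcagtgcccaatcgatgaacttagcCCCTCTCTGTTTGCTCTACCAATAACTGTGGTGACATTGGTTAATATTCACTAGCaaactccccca
Serpina1d: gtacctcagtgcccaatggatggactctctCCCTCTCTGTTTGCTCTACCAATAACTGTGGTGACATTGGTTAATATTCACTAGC
Serpina1e: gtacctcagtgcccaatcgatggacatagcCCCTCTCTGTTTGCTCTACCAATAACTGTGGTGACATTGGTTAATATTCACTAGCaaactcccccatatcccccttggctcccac
Within the run stands GTTAATATTCAC, which opens with the same letters as the recognition sequence of hepatocyte nuclear factor 1, a regulator of liver genes that beta cells also use. Searched on both strands, this stretch was in 5 of 32851 windows (0.0152%), those of the 5 genes. The stretch was picked after the shared run was seen, and no binding was measured.

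Neuronal genes were called on both sides. Of 28 measured genes, 4 were plus and 2 minus (21.4%), with a list median of 0.21. For this and every list below, the share to compare is the 3.53% called among first probes of all named genes. These lists too were compiled with earlier results known, so their shares are not independent evidence. Stmn2, a neuronal protein that loosens microtubules, read 331% and 245% on slides 1 and 2 and 11% and 12% on slides 3 and 4. Its log2 ratio was 2.32 ± 0.13 (fit SE, n = 4), or 4.98-fold. With Uchl1 and Stmn2 on the plus side were the cell-contact proteins Cntnap2, at 1.21 ± 0.16, and Cntn1, at 0.94 ± 0.15. Cntn1 lost its call without slide 3, and its other probe was at 0.67 and not called. The minus-side members were Th, at -1.73 ± 0.17, and Ddc, at -0.79 ± 0.13, which carry out successive steps of dopamine synthesis, and Ddc lost its call without slide 1 or 2. Th read 21% and 22% against 224% and 250%, with both channel orders closely repeated. The pan-neuronal markers Tubb3, Nefl and Gap43 were at 0.10, -0.08 and -0.37 and were not called.

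**Figure D2:**
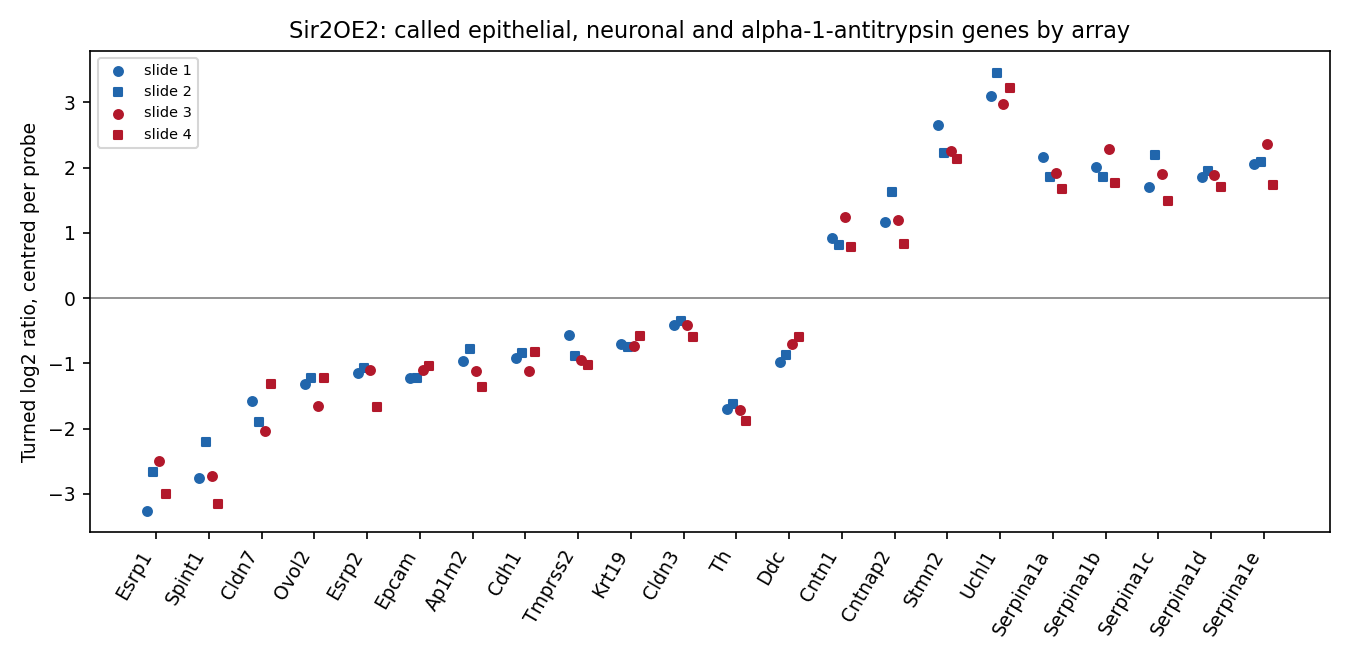
Turned log2 ratio on each of the 4 Sir2OE2 arrays (centred per probe, 1 point per array) for the called genes of the epithelial and neuronal lists and the 5 alpha-1-antitrypsin genes. All 11 epithelial genes lie below 0 on every array and all 5 alpha-1-antitrypsin genes above 0, whereas the 6 neuronal genes divide into 2 below and 4 above. The genes were plotted because they were called, which favours agreement between arrays, so that agreement is no separate support.

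Imprinted genes, which are used from one parental copy, were called in both directions: of 29 measured, 3 were plus and 2 minus (17.2%), and the median was -0.06. Mest was the furthest of them and Rasgrf1, an activator of Ras, was at -0.75 ± 0.11. On the plus side, Dlk1, a membrane protein of the Notch ligand family, read 252% and 233% against 47% and 40%, at 1.24 ± 0.13. Gnas, the stimulatory G protein, was at 1.27 ± 0.16 by its first probe and at 0.15, not called, by its other. Cd81 was at 0.67 ± 0.11 and lost its call without slide 2 or 4.

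Of the genes that mark beta cells, 2 of 18 were called, both on the minus side (11.1%). Slc2a2, the glucose transporter of beta cells and liver, read 41% and 41% on slides 1 and 2 and 331% and 329% on slides 3 and 4, a close repeat in both channel orders, at -1.50 ± 0.13. Neurod1, a transcription factor of endocrine cells, was at -0.50 ± 0.09 and lost its call without any 1 slide. Pdx1 was at -0.12 and Nkx6-1 at 0.42, and the list's median was -0.19. The probes of Ins2 and Iapp are in a set of 329 that, on at least 5 of the 7 overexpression arrays, read within 1 percentage point of the most frequent set of percents, so their values of -0.35 and -0.41 are not read as measurements of these genes. A ratio of 2 RNAs gives no level, so whether these markers are abundant in the line cannot be read from it. Markers of other islet cells were near the pool: Sst of delta cells at -0.32, Hhex of delta cells at 0.02 and Ppy of PP cells at 0.08, with 0 of 14 list members called. The Gcg probe of alpha cells is in the shared-ratio set of 329 and is not read either.

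Genes of insulin processing and release were divided. Of 30 measured, 3 were called plus and 2 minus (16.7%), with a median of -0.03, and 6 members, the chromogranin Chga among them, were in the shared-ratio set. Pcsk1, which cuts proinsulin, read 175% and 175% against 64% and 55%, at 0.78 ± 0.11. The vesicle GTPase Rab3a was at 0.66 ± 0.11 and Syt11 at 0.62 ± 0.09, though its other probe was at 0.06 and not called. Cplx2, which holds vesicle fusion in check, was at -0.56 ± 0.12 and the calcium sensor Syt5 at -0.47 ± 0.10. Rab3a lost its call without slide 2 or 4, Cplx2 without slide 1, 2 or 4 and Syt5 without any 1 slide. The subunits of the ATP-sensitive potassium channel, Abcc8 and Kcnj11, were at -0.21 and 0.28 and were not called.

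In glucose metabolism, 2 of 26 were called (7.69%), both on the plus side: lactate dehydrogenase Ldha, at 0.83 ± 0.12, and the lactate transporter Slc16a1, at 0.92 ± 0.18 and not called without slide 1, 3 or 4. Both are known for being kept low in normal beta cells. Ldha read 144% and 126% against 40% and 46%. Of 23 calcium, sodium and TRP channels and their regulators 4 were called (17.4%): Trpc6 and Trpc1 (1.26 ± 0.21, lost without slide 2) were on the plus side and the channel inhibitor Gem (-0.87 ± 0.12) and Trpm4 (-0.60 ± 0.14, lost without any 1 slide) on the minus side. Of 29 potassium channel genes 2 were called (6.9%): Kcnq1 and Kcnmb4 were on the plus side at 1.14 and 1.09, though 2 further Kcnq1 probes were at 0.03 and 0.07 and not called. Fatty acid genes had 3 of 28 called, Acot11 and the mitochondrial Cpt2 (-0.74, lost without slide 2, 3 or 4) on the minus side and the carrier Fabp5 (0.82) on the plus side.

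Lists tied to known Sirt1 substrates and to stress stayed close to the background of 3.53% or rested on 1 or 2 genes. Among 32 FoxO and PGC-1 linked genes 2 were called, Clock at 0.69 and Gadd45a at 0.59. Among 21 p53 targets 2 were called, Gadd45a again and Plk2 at -0.83. Gadd45a lost its call without slide 1, 3 or 4. The uncoupling and carrier list had 2 of 20, Ucp1 at -0.58, which lost its call without any 1 slide, and Cpt2. Of 29 antioxidant genes, Sod3 and the glutathione transferase Gstm2 (-1.40 ± 0.10) were called on opposite sides. Heat shock genes had 2 of 14, the co-chaperone Bag3 at 0.74 and Hspb8 at 0.80, which lost its call without any 1 slide. Among 51 subunits of the respiratory chain 1 was called, Ndufa6 at -0.45, also lost without any 1 slide, and 18 members were in the shared-ratio set. Limma called 0 of 29 unfolded protein genes and 0 of 21 sterol and lipid synthesis genes.

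Of 44 cell cycle genes 6 were called (13.6%), 3 on each side, with a median of 0.07. On the plus side were topoisomerase Top2a at 0.97, the mitotic kinase Cdk1 at 0.79 and the replication helicase subunit Mcm7 at 0.54. Another subunit of the same helicase, Mcm2, was on the minus side at -0.68, with the cyclin Ccnd2 at -0.81 and the mitotic activator Cdc20 at -0.69. The second Ccnd2 probe was called on the same side, at -0.81. Each of the 6 first probes lost its call without 1 or more slides: Top2a and Cdc20 without any one of them, Ccnd2 without slide 1, 2 or 3, Mcm7 without 2, 3 or 4, and Cdk1 and Mcm2 without 1 or 2. Growth factor signalling had 2 of 29 called, Igfbp4 and Igfbp7, the second at -0.84 and lost without any 1 slide. Lists of exocrine and duct, and of immune and endothelial cells, had 2 of 23 and 1 of 23 called, with Rbpjl at 0.78, Krt19, and Esam at -0.90, which lost its call without slide 2.

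**Figure D3:**
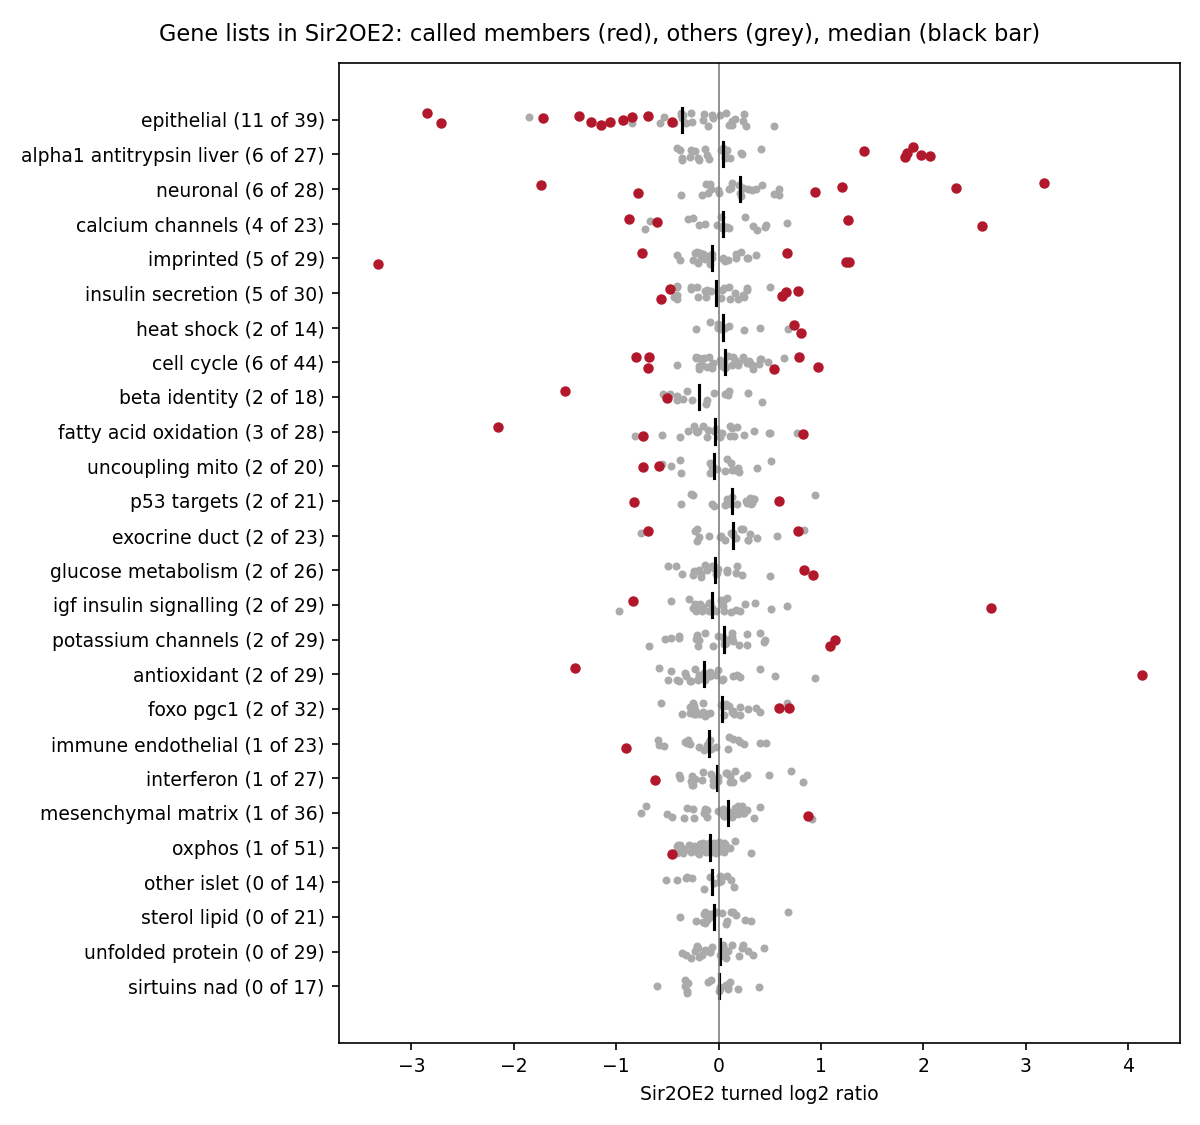
Turned log2 ratio in Sir2OE2 of the measured members of 26 gene lists, each gene read from its first probe, with called members in red, others in grey and the list's median as a black bar. Labels give the called and measured members, from 11 of 39 for the epithelial list to 0 of 17 for sirtuins and NAD supply.

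The sister line Sir2OE1 was set against the same Neo pool, where limma called 247 probes (1.06%). Of the 653 probes called in Sir2OE2, 517 were not called in Sir2OE1. A missing call there does not show a difference, since Sir2OE1 has 3 arrays, so the difference between the lines was tested in the same fit. It passed at 75 of 23230 probes (0.323%). Probes called in Sir2OE2, not called in Sir2OE1 and called for the difference numbered 49 (0.211%), 36 plus (0.155%) and 13 minus (0.056%), while 468 were called in Sir2OE2 alone with no called difference. The 49 probes held 37 named genes and 11 probes without a symbol. Because the lines share the Neo pool, an error in its RNA enters both ratios alike and drops out of their difference. Both counts rest on every array: in place of 75 and 49 they were 23 and 10 without Sir2OE2 slide 1, 18 and 7 without slide 2, 35 and 22 without slide 3, and 41 and 25 without slide 4. Without Sir2OE1 slides 1, 2 and 3 the counts were 42 and 28, 20 and 13, and 34 and 24.

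Among named genes that met these 3 conditions on the plus side, 9230117E06Rik, Psors1c2, Magea3, Igfbp4 and Matr3 differed most from Sir2OE1. In Sir2OE1 the line was in channel 2 on slides 1 and 2 and in channel 1 on slide 3. There 9230117E06Rik read 110% and 86% against 154%, close to equal channels, and was at -0.28 ± 0.20 (fit SE, n = 3 arrays). The difference between the lines was 3.91 ± 0.27 with an adjusted p of 0.00031, a 15.0-fold gap. Igfbp4 read 115%, 121% and 113% in Sir2OE1, at 0.04, where Sir2OE2 had 2.66, a difference of 2.62 ± 0.33 and an adjusted p of 0.00916. Stmn2 was at 0.47 in Sir2OE1, with 62% and 72% against 32%, and differed by 1.85 ± 0.20 (adjusted p = 0.00601). The Sir2OE2 arrays spanned 7% to 1450% for 9230117E06Rik, 12% to 756% for Igfbp4 and 11% to 331% for Stmn2. For these 3 genes the Sir2OE1 arrays stood nearer equal channels, furthest off at 32% for Stmn2.

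Psors1c2 was at 2.58 in Sir2OE2 and -0.47 in Sir2OE1, a difference of 3.05 (adjusted p = 0.00842). The melanoma antigen gene Magea3 was at 1.84 and -0.88, differing by 2.72 with the same adjusted p. Matr3 was at 2.14 and -0.46 (adjusted p = 0.0264), the splicing-related gene Rsrc1 at 1.95 and -0.31 (0.00657) and Tmem35a, a chaperone of acetylcholine receptors, at 1.52 and -0.74 (0.00938). Tnfaip8l2, a regulator of immune signalling, was at 2.09 and -0.11 (0.0105) and Lonrf2 at 2.06 and -0.12 (0.0173). Sema3c, a secreted guidance protein, had 2 probes among the 49, at 1.97 and 1.72 in Sir2OE2 and 0.39 and 0.02 in Sir2OE1; it was singled out after its values were seen, because both probes passed.

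Minus-side genes that met the rule were headed by Sult1d1, a sulfotransferase, at -1.78 in Sir2OE2 and 0.92 in Sir2OE1, a difference of -2.70 (adjusted p = 0.00987). Necab2 read 26% and 32% against 358% and 351% in Sir2OE2, and 80% and 109% against 139% in Sir2OE1. The lines were at -1.81 and -0.25 and differed by -1.56 ± 0.18 (adjusted p = 0.00657). The iron exporter Slc40a1 was at -1.66 and -0.35, with the difference just past the threshold at an adjusted p of 0.0471. Ang, a secreted ribonuclease, was at -1.03 and 0.40, and its pseudogene Ang-ps1 at -1.11 and 0.16; their sequences are alike and the probes may share targets. Rasgrf1 was at -0.75 and 0.60, the lipid phosphatase Plpp3 at -0.68 and 0.62, and Celsr1, a cadherin of planar cell polarity, at -0.89 and 0.10. The pseudogene Speer8-ps1 was at -1.54 and 0.03 and the predicted gene Gm16440 at -1.10 and 0.00.

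Few of these differences held without each of the 7 overexpression arrays in turn. Those of 9230117E06Rik, Stmn2 and Necab2 did. Magea3 and Rsrc1 lost theirs without Sir2OE2 slide 2 or Sir2OE1 slide 3, and Psors1c2 and Tmem35a without these or Sir2OE1 slide 2. Igfbp4, Rasgrf1 and Ang-ps1 lost theirs without Sir2OE2 slide 1 or 2 or Sir2OE1 slide 2 or 3, Sult1d1 without Sir2OE2 slide 1 or Sir2OE1 slide 2 or 3, and Tnfaip8l2 without slides 1 or 2 of either line. Lonrf2 lost its difference without Sir2OE2 slide 1, 2 or 4 or Sir2OE1 slide 2 or 3, Ang without Sir2OE2 slide 1, 2 or 4 or Sir2OE1 slide 1 or 2, and Speer8-ps1 without Sir2OE2 slide 1, 2 or 3 or Sir2OE1 slide 1 or 2. Gm16440 lost it without any Sir2OE2 slide or Sir2OE1 slide 1 or 2, Plpp3 without any array but Sir2OE2 slide 4, and Matr3, Slc40a1 and Celsr1 without any 1 array. The call in Sir2OE2 itself was more stable, kept by 10 of the 10 plus-side genes and 9 of the 10 minus-side genes without any 1 of its slides; Plpp3 lost it without slide 1, 2 or 3.

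A further 8 probes were called on opposite sides in the overexpressing lines, 7 of them named. Dlk1 was at 1.24 ± 0.13 in Sir2OE2 and -1.46 ± 0.15 in Sir2OE1, where it read 36% and 42% against 302%. In each line the arrays split cleanly by channel order, and the orders are reversed between the lines. The difference was 2.70 ± 0.19 (adjusted p = 0.00031), 6.52-fold. Defb41, a defensin, was the reverse, at -1.35 and 1.26: it read 43% and 40% against 273% and 264% in Sir2OE2 and 242% and 332% against 52% in Sir2OE1 (adjusted p of the difference 0.00031). Csn3, the kappa-casein of milk, was at 0.84 and -0.87.

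Smaller opposed values were those of the securin Pttg1, at 0.52 and -0.83, and the gasdermin Gsdma, at 0.57 and -0.90. The uridine phosphorylase Upp1 was at 0.67 and -0.81, and the G-protein regulator Rgs3 at -0.61 and 0.75. The other Rgs3 probe was near 0 in both lines, at -0.10 and -0.03. The differences of Dlk1, Defb41, Csn3, Pttg1 and Rgs3 kept their call without any 1 of the 7 overexpression arrays, Gsdma lost it without Sir2OE1 slide 3, and Upp1 without any array but Sir2OE2 slide 4. The call in Sir2OE2 itself was lost by Pttg1 and Upp1 without any 1 of its slides, by Gsdma without slide 2, 3 or 4 and by Rgs3 without slide 1.

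**Figure D4:**
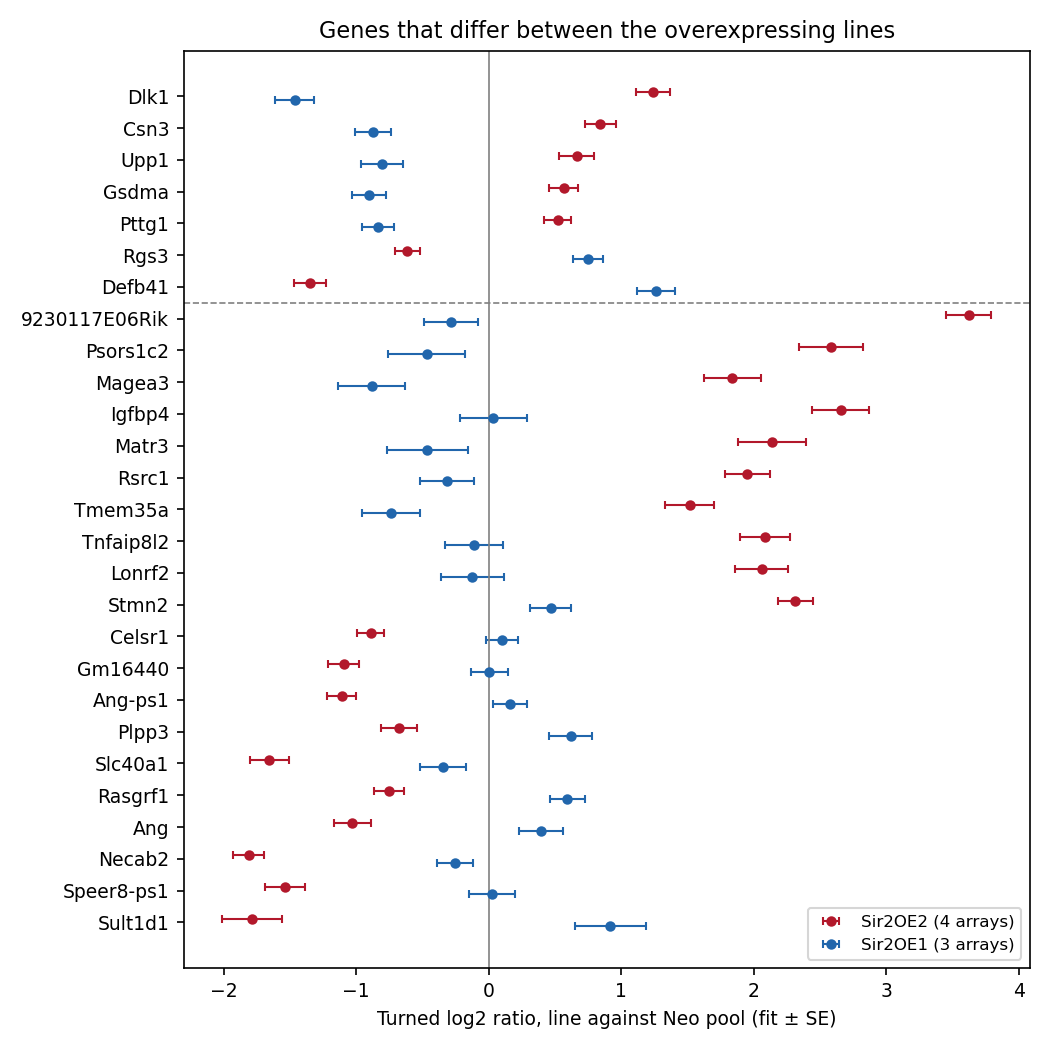
Turned log2 ratio against the Neo pool (fit ± SE) in Sir2OE2 (red, 4 arrays) and Sir2OE1 (blue, 3 arrays). Below the dashed line are the 20 genes called in Sir2OE2, not in Sir2OE1 and for the difference, such as 9230117E06Rik at 3.62 and -0.28; above it are the 7 genes called on opposite sides, such as Dlk1 at 1.24 and -1.46.

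Of the 12 genes furthest on each side, 9 on the minus side and 3 on the plus side were also called in Sir2OE1. Both lines were set against the shared Neo pool, so this overlap is no separate support. Among these genes only Sod3 had a called difference between the lines. Mest was at -2.38 in Sir2OE1 against -3.33 in Sir2OE2, Esrp1 at -3.45 against -2.85 and Spint1 at -3.27 against -2.71. Cartpt was at -1.48 against -2.40, Tmed6 at -2.33 against -1.94, Acot11 at -2.22 against -2.15 and Uchl1 at 2.45 against 3.18. The difference of Sir2OE2 from Sir2OE1 was -0.34 for Rapgef2 and 0.08 for Trpc6. Other genes differed between the lines in size and not in side. Sod3 was at 2.44 in Sir2OE1, with 392% and 606% against 16%, and the difference of 1.69 ± 0.19 was called (adjusted p = 0.00653) and kept without any 1 overexpression array. Epcam was at -2.74 in Sir2OE1, further on the minus side than in Sir2OE2, with 17% and 17% against 804%, a difference of 1.59 ± 0.22 (adjusted p = 0.0169) that was lost without any 1 of the 7 arrays. It was the only called difference among the 11 minus-side epithelial genes. For Ifi44l, Bcar3 and Cby3 the values in Sir2OE1 were 1.05, 0.10 and 0.13, and the differences from Sir2OE2, between 2.09 and 2.61, were not called, with adjusted p values of 0.0699, 0.0699 and 0.0583. Of the 5 alpha-1-antitrypsin genes, Sir2OE1 was between 0.95 and 1.13 and the differences of 0.80 to 0.95 were not called. Among other list members, Ldha differed, at 0.83 against -0.50 (adjusted p = 0.0199), a call lost without any array but Sir2OE2 slide 4. The difference was also called for 2 members not called in Sir2OE2, the endocrine transcription factor Myt1 at -0.54 against 0.65 (adjusted p = 0.037, lost without any 1 array) and the thioesterase Acot7 at 0.77 against -1.29 (adjusted p = 0.0241, lost without any array but Sir2OE1 slide 3). Another probe of the beta-cell list member Ucn3, not called in Sir2OE2, was at 0.56 against -0.70. Its difference was called (limma adjusted p = 0.0369). The first Ucn3 probe was at -0.04 against 0.18, and its difference was not called. Myt1, Acot7 and Ucn3 were named after their values were seen.

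The 49 probes that differed from Sir2OE1 also had values in the knockdown lines Sir2KD1 and Sir2KD2, MIN6 lines with small interfering RNAs against Sirt1, selected at a higher G418 dose (400 micrograms per ml) and set against the empty-vector line mU6pro on 3 and 4 arrays. Of the 49, 19 (38.8%) were called in Sir2KD1 and 8 (16.3%) in Sir2KD2, and 26 in neither. Of all probes, 3.59% and 1.34% were called there. The fit shares 1 estimate of a probe's spread over all lines, and the 49 passed 2 tests that use it. Probes of small spread are thus favoured in every line, and the share of all probes is no fair background for the 49. The knockdown values carry the same unsettled direction, and which channel is on top may differ between the kinds. The Igfbp4 probe was at -1.39 in Sir2KD1 and 0.45 in Sir2KD2, Stmn2 at 1.77 and 1.10, and Sult1d1 at -3.43 and -2.21. Ang was at -1.51 and 0.28.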

How the data were processed

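Per the labels, each array compared a line with control RNA in 2 channels. The values deposited by the authors are channel log2 ratios, as their form shows, centred per probe to sum to 0 over 6 of the 7 overexpression arrays (Sir2OE1 slide 2 left out). Undoing the centring gave whole-number percents for 100.0% of complete probes (relative tolerance 1e-05). The array software, normalization and ratio direction are nowhere given in the sources used here, and without intensities signal over background is unknown. The number of arrays limits the precision.

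The fit used limma 3.58.1 under R 4.3.3 over all 14 arrays, with an orientation-coded coefficient per line and a channel offset for each kind of perturbation. The Benjamini-Hochberg adjustment ran over 23230 probes that had 2 or more values in each line, at 0.05, and the fit was tested on simulated data. Of 23232 probes, 16885 had 1 symbol in the platform annotation, 143 had several and 6204 had none. Symbols were updated through GRCm38.p6 gene names. A further 329 probes were within 1 percentage point of the most frequent set of percents on at least 5 overexpression arrays, and 0 of them were called by limma.

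Named are the 12 genes furthest on each side with all arrays on that side, the 10 on each side that differ most from Sir2OE1 among those meeting all 3 call conditions, genes called on opposite sides, called list members and sirtuins. Lists read a gene's first probe. Members and lists were chosen with earlier results of these data known. Alternatives varied the arrays, offset, scaling, weights, prior, filters, probe choice and replicate block. Same-numbered slides of the overexpressing lines had deviations correlated at -0.375, -0.059 and -0.269. The centring per probe ties the arrays to each other, so these values cannot show whether the numbers pair the slides.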

Additional observations from a re-analysis of the deposited data

Results flagged for a closer look

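In 30 named genes the difference between Sir2OE2 and Sir2OE1 passed limma's adjusted threshold. Of these, 10 plus-side and 10 minus-side genes were named for passing it, and 7 for calls on opposite sides. The count of 30 thus follows largely from how genes were named. Over all tested probes the difference passed at 75 of 23230 (0.323%). On the log2 scale the Sir2OE2 value was above that of Sir2OE1 by 3.91 for 9230117E06Rik, 3.05 for Psors1c2, 2.72 for Magea3, 2.70 for Dlk1, 2.62 for Igfbp4, 2.60 for Matr3, 2.27 for Rsrc1, 2.25 for Tmem35a, 2.20 for Tnfaip8l2 and 2.18 for Lonrf2. It was above by 1.85 for Stmn2, 1.72 for Csn3, 1.69 for Sod3, 1.59 for Epcam, 1.47 for Gsdma and for Upp1, 1.35 for Pttg1 and 1.33 for Ldha. The difference was negative for Sult1d1 (-2.70), Defb41 (-2.61), Speer8-ps1 and Necab2 (both -1.56), Ang (-1.43), Rgs3 (-1.37), Rasgrf1 (-1.35), Slc40a1 (-1.31), Plpp3 (-1.30), Ang-ps1 (-1.27), Gm16440 (-1.10) and Celsr1 (-0.99).

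One array of Sir2OE2 stood apart from the other 3 by Dixon's test in 9 of 118 named probes, where chance gives about 5 percent of groups. Of the 118 probes 101 were called, which favours arrays that are even and on one side. The 5 percent is therefore no fair background, and the 9 are listed as a description. Slide 2 was the one apart for Ighv6-6 (-1.66), Speer8-ps1 (-1.91), Mcm2 (-0.85), Pttg1 (0.70) and Slc16a1 (0.56), slide 4 for Esrp2 (-1.67) and Sirt5 (0.46), slide 3 for B2m (-0.75) and slide 1 for Csn3 (0.71). In each the array lay on the same side as the other 3.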

How the results depend on the processing

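The main counts were 653 probes called in Sir2OE2, 75 for its difference from Sir2OE1, 49 meeting all 3 conditions and 67 called list members. Array weights gave 3266, 171, 125 and 166, no channel offset 1190, 282 and 143, and centred and scaled arrays 1021, 144 and 100 for the first 3. The overexpression arrays alone gave 23 differences and 16 meeting all conditions, the Sir2OE2 arrays alone 120 calls, of which 114 were among the 653, and no turned sign 0. Leaving out 1 Sir2OE2 array gave 317 to 389 calls and 44 to 51 list members, and leaving out 1 Sir2OE1 array 616 to 675 calls. Over arrays of both lines there were 18 to 42 differences and 7 to 28 meeting all conditions. The replicate block gave 762, 94, 56 and 72, and all 101 called named probes kept their call. With the overexpression arrays alone 22 of these 101 lost theirs, and without 1 slide 22 to 28. No called named probe changed side in the settings run on them. Sirt1 and Nadk were called with array weights and with no channel offset, and Nnmt with array weights. The causes were not tested. No depth or intensity was given, so a probe near background cannot be told from one with a true ratio near 1.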

Other observations

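Some called genes stand next to each other in the gene order of GRCm38.p6, the build also used for gene names and promoter windows. Of 14855 genes with a place in that order, 555 were called. Both genes were called in 36 of 14833 adjacent pairs, 28 with both on one side and 8 split. Whether that is more than genes in random order would give was not tested. Several same-side runs are gene families whose probes may share targets: the alpha-1-antitrypsin genes; the melanoma antigen genes Magea6 (2.02), Magea3 (1.84), Magea8 (1.66) and Magea5 (1.29); the glutathione transferases Gstm3 (-1.34) and Gstm2 (-1.40); the reductases Akr1c13 (-0.80) and Akr1c12 (-1.01); and Ang-ps2 (-1.23) with Ang-ps1 (-1.11). In the Magea family Magea4 was at -0.17 and not called. In Sir2OE1 the 4 called Magea genes were between -0.88 and 0.07 and none of them was called, while in Sir2KD2, a knockdown line with another control, Magea6, Magea3 and Magea8 were called at 1.52, 1.37 and 1.53.

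In other same-side pairs Bcar3 (2.71) lies beside Fnbp1l (1.58), Igfbp4 (2.66) beside Top2a (0.97), Rsrc1 (1.95) beside Mlf1 (1.20), Pcolce2 (0.78) beside Trpc1 (1.26) and Clgn (1.21) beside Scoc (1.09). The Y RNAs Rny3 and Rny1, 1 family of small RNAs in the Ro particle, were at 1.08 and 1.44. On the minus side Rnf128 (-0.97) lies beside Tbc1d8b (-1.35), Scp2 (-0.69) beside Echdc2 (-1.49) and Bcam (-1.16) beside Cblc (-1.05).

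Among the 11 probes with no single symbol that met all 3 call conditions, the largest log2 ratio in Sir2OE2 was 3.03. Sir2OE1 was at 0.05 there. Other called probes with no single symbol reached 3.53 and 3.05, with Sir2OE1 at 3.10 and 0.21. Their differences between the lines were not called.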
